A study of Mus musculus with 4 samples.

Results

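Expression of leukocyte marker genes was examined in cells sorted for Tomato from mouse olfactory epithelium that had regenerated. The set held 31 genes of the 23337 gene symbols counted, chosen because macrophages, neutrophils or lymphocytes are known for their expression, and all 31 were found in every sample. Spi1 was found under its older symbol Sfpi1 and the other 30 by their current symbol. By class, 6 genes mark leukocytes in general, 9 mark macrophages, 8 are shared by myeloid cells, 2 mark neutrophils, 3 mark T and cytotoxic lymphocytes and 3 mark B lymphocytes. Each class is described within each of 2 experimental groups of littermates, as the study set them up.

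Each sample came from 1 mouse of mixed strain background. Control cells were Lmnb1+/- and mutant cells were Lmnb1-/-, and experimental group 1 and experimental group 2 each held 1 control and 1 mutant. Samples are named control 1, mutant 1, control 2 and mutant 2 after their experimental group. All 4 mice had been injected with methimazole at 50 mg/kg, which damages the olfactory epithelium, and had recovered for 4 weeks. All carried a Cre recombinase driven by the keratin 5 promoter, a conditional Lmnb1 allele on 1 or both chromosomes and a Tomato reporter that Cre switches on. Horizontal basal cells, the resident stem cells, are the cells of this epithelium that use keratin 5, so the sort gated on them and their progeny. Controls therefore carried Cre and had lost 1 Lmnb1 copy in the sorted cells. The age and sex of a single mouse are not given in the labels, and treatment, parents, age and sex differed between the experimental groups.

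Leukocytes are blood-derived cells that descend from haematopoietic stem cells and not from horizontal basal cells. Macrophages reside in the olfactory mucosa, take up dying cells and enter in larger numbers after damage. Neutrophils arrive early after injury, and lymphocytes recognise antigen. The transcription factor PU.1, the product of Spi1, is needed for macrophage and neutrophil development and binds purine-rich DNA with the core GAGGAA. In bulk RNA, fewer cells of a type and less RNA per cell cannot be told apart.

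Gene counts summed to between 14833396 in mutant 2 and 23704638 in control 1. Mutant 1 stood apart. In it 39.4% of uniquely aligned reads lay outside genes, compared with 22.1 to 24.9% in the other samples, and 1603 genes had 0 counts compared with 5173 to 6053. At genes silent in the other 3 samples it held a median of 1.80 counts per kb, and this density was used below as its expected background. Lmnb1, the targeted gene, was lower in each mutant (14.1 and 10.1 CPM) than in its control (20.6 and 18.8 CPM), with an edgeR adjusted p of 0.195. CPM is a count scaled to library size, here after trimmed mean of M-values (TMM) factors. Defining genes of the labelled tissue were abundant in all 4 samples. The mature neuron marker Omp ranged from 912 to 9665 CPM, the horizontal basal cell marker Krt5 from 628 to 1410 CPM and the sustentacular marker Cbr2 from 3474 to 6189 CPM.

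Counts of leukocyte markers made up a small share of each sample. The 31 genes together held 0.0861% of control 1's gene counts, 0.0983% of control 2's, 0.0477% of mutant 1's and 0.104% of mutant 2's. Lyz2, Lcp1 and Cd14 held most of these counts in experimental group 2. Without these 3 genes the shares were 0.0496%, 0.00744%, 0.0170% and 0.0167%. The sum of the other 28 genes was thus lowest in control 2 and highest in control 1, which did not hold for each gene. At least 1 read was counted in mutant 1 for all 31 genes, in control 1 for 29, in mutant 2 for 28 and in control 2 for 25. Of the 31 genes, 26 had more than 1 CPM in at least 2 samples and were tested. The 5 below this level were Cd3e, Cd3g, Nkg7, Cd79a and Ms4a1, and all 5 mark lymphocytes.

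**Figure D1:**
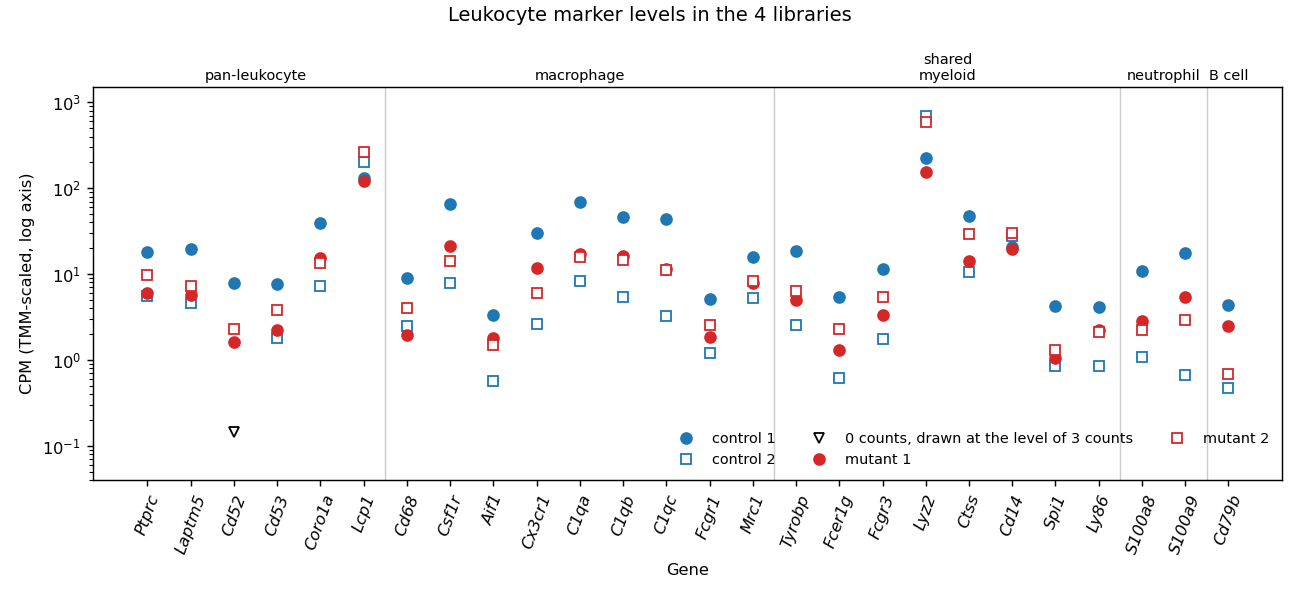
Level of the 26 tested leukocyte marker genes in each sample, in CPM on a log axis, by class; circles are experimental group 1, open squares experimental group 2, blue controls and red mutants, with 1 mouse per point. Control 1 was highest for 23 genes, compared with 33.0% of all tested genes, and control 2 was lowest for 22, compared with 23.6%. By contrast, Lyz2, Lcp1 and Cd14 followed other orders. The triangle marks Cd52 in control 2, which had 0 counts and is drawn at the level of 3 counts.

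To ask whether leukocyte markers depended on genotype, mutants were compared with controls in a model with experimental group as replicate block. Of 26 tested genes, 0 changed in either direction (edgeR likelihood-ratio test, adjusted p under 0.05), whereas 5.58% of all 15438 tested genes did, 4.3% falling in mutants and 1.28% rising. None of the 26 had an unadjusted p under 0.05, compared with 15.9% of all tested genes, and the smallest was 0.11, for Lyz2. The quasi-likelihood test and DESeq2 also called 0 of the 26 genes, each with 1 gene at an unadjusted p under 0.05. Over all 15438 tested genes, 2740 and 1990 had such a p under these 2 tests. No leukocyte marker had both mutants above or both mutants below both controls, which was so for 25.9% of all tested genes. Log2 fold changes of the 26 genes lay between -0.78 for Cd68 (SE 0.70) and 1.33 for Cd52 (SE 1.14), with a median of -0.18. The median dispersion, which measures spread beyond counting error in the model, was 0.169 for the 26 genes compared with 0.03 for all tested genes.

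Within the experimental groups mutant and control differed by more than counting error for most of these genes, the exceptions being Cd14 in both and Spi1 and Cd79b in experimental group 2. In experimental group 1 all 26 genes were lower in mutant 1 than in control 1, when 53.0% of all tested genes were, and 19 were more than 2-fold lower, compared with 4.38% of all tested genes. In experimental group 2, 25 of 26 genes were higher in mutant 2 than in control 2, when 50.0% of all tested genes were, and 13 were more than 2-fold higher, compared with 4.99%. Lyz2 was the exception. The sign for Cd14 in experimental group 1 depended on scaling, since its ratio was above 0 with plain CPM or after thinning. The sequence lower in mutant 1 and higher in mutant 2 was shared by 25 of 26 genes and by 20.2% of all tested genes. Of the 26, 11 were past 2-fold both ways, namely C1qb, C1qc, Cd52, Cd53, Ctss, Cx3cr1, Fcer1g, Fcgr1, Fcgr3, S100a9 and Tyrobp, compared with 113 of all tested genes, or 0.732%. The opposite sequence, past 2-fold higher in mutant 1 and lower in mutant 2, was found for 0 of the 26 genes and 0.9% of all tested genes. These ratios rest on 1 mouse against 1 mouse in each experimental group and carry no test.

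**Figure D2:**
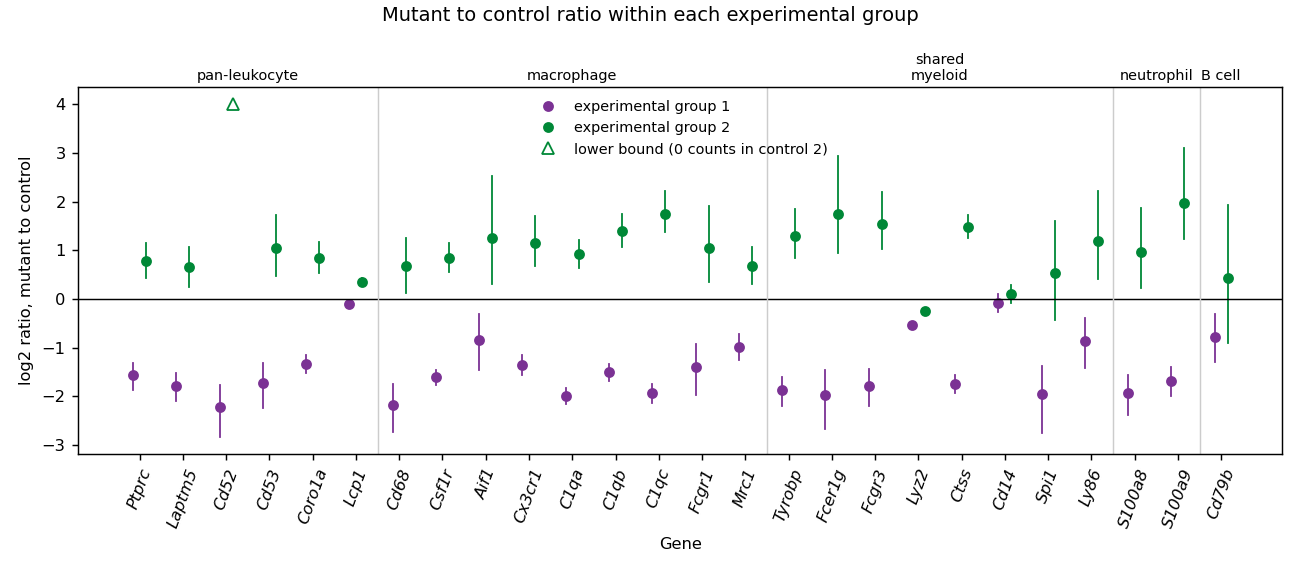
Log2 ratio of mutant to control CPM (prior count 2) for the 26 tested genes within experimental group 1 (purple) and experimental group 2 (green); lines are exact 95% intervals of the count ratio and cover counting error only. Purple points lie below 0 for all 26 genes and green points above 0 for all but Lyz2; the open triangle for Cd52 is a lower bound because control 2 had 0 counts.

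The distance between the controls was larger than that between the mutants for all tested genes with counts in both controls but Lyz2, Lcp1 and Cd14. Control 1 was more than 2-fold above control 2 for 23 of the 26 genes, compared with 11.5% of all tested genes. Mutant 1 was more than 2-fold above mutant 2 for 1 gene, Cd79b, compared with 12.4% of all tested genes, and mutant 2 more than 2-fold above mutant 1 for 3 genes, Ctss, Lcp1 and Lyz2, compared with 7.14%. Leaving out Lyz2, Lcp1 and Cd14, and Cd52 with its 0 counts in control 2, the ratio of control 1 to control 2 ran from 2.99 for Mrc1 to 26.1 for S100a9 (median 6.20 over 22 genes). For the mutants it ran from 0.483 for Ctss to 3.71 for Cd79b, with a median of 0.944 over 23 genes, Cd52 included. Among the 26 genes the order control 1, mutant 1, mutant 2, control 2, from high to low, was found for 11, compared with 7.96% of all tested genes.

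Coefficients for the experimental group were taken from the same model. Of the 26 genes, 8 were lower in experimental group 2 (C1qa, C1qb, C1qc, Cd79b, Coro1a, Csf1r, Cx3cr1 and S100a9), when 14.0% of all tested genes were, and 2 were higher (Lcp1 and Lyz2), when 17.7% were (edgeR adjusted p under 0.05). The calls depended on single libraries. In a model of experimental group alone, 0 were lower and 1 was higher without control 1, 2 were lower and 2 higher without control 2, 10 were lower and 1 higher without mutant 1, and 8 were lower and 1 higher without mutant 2. The quasi-likelihood test and DESeq2 each called 3 genes lower. Treatment, parents, age, sex and library work cannot be told apart in this coefficient.

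The first class was the 6 pan-leukocyte genes. Ptprc encodes CD45, the phosphatase at the surface of nucleated blood cells. It had 18.2 CPM in control 1, 6.07 in mutant 1, 5.57 in control 2 and 9.62 in mutant 2. Control 1 stood above the other 3 samples, and both mutants lay between the controls. The log2 ratio of mutant to control was -1.57 in experimental group 1 (95% interval -1.87 to -1.30, counting error only) and 0.78 in experimental group 2 (0.42 to 1.15). In the model Ptprc changed by -0.41 (SE 0.52, edgeR adjusted p = 0.829). Laptm5, a lysosomal membrane protein of leukocytes, had 19.6, 5.64, 4.57 and 7.25 CPM in the same order, so that mutant 1 again lay close to control 2. The tetraspanin gene Cd53 had 7.65, 2.26, 1.81 and 3.86 CPM and followed the same order of samples.

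Coro1a encodes coronin, which organises actin in leukocytes. Its levels were 39.2 CPM in control 1, 15.6 in mutant 1, 7.34 in control 2 and 13.3 in mutant 2. Coro1a was lower in experimental group 2 than in experimental group 1 (log2 fold change -1.32, SE 0.42, edgeR adjusted p = 0.01455) and did not pass under the quasi-likelihood test (adjusted p = 0.0565). A stretch of 26 bp of its exons overlaps Bola2 on the opposite strand. Cd52, a short surface glycoprotein of lymphocytes and monocytes, had 181 counts in control 1, 37 in mutant 1, 0 in control 2 and 34 in mutant 2. Its level was at least 16.1-fold higher in mutant 2 than the 3-count floor of control 2. Exons of Cd52 share 172 bp with Crybg2 on the opposite strand, and the strand setting of the counting is not stated.

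Lcp1, or plastin, bundles actin and differed from the other 5. Its exons share 311 bp with Gm15628 and 219 bp with Gm15629 on the opposite strand, neither of which was counted as a symbol. It had 130.1 CPM in control 1, 120.6 in mutant 1, 204.1 in control 2 and 262.1 in mutant 2. Both samples of experimental group 2 were above both of experimental group 1 (log2 fold change 0.88, SE 0.21, edgeR adjusted p = 0.000303), the reverse of Coro1a. Over the 6 pan-leukocyte genes the median of the log2 ratios was -1.64 within experimental group 1 and 0.81 within experimental group 2, beside medians of -0.03 and 0.00 over all tested genes. Lcp1 made up most of the class's counts, and the ratio of summed CPM was -0.55 and 0.42.

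Since PU.1 is itself among the myeloid genes, promoter windows were read for its core. Windows of 300 bases, from 250 before to 50 after a transcription start, were taken from RefSeq on GRCm38.p6 for 23 of the 31 genes. GAGGAA, or TTCCTC on the other strand, was found in 15 of their 27 windows (55.6%), compared with 28.3% of 32851 windows of all genes. By gene, 14 of the 23 held a match, and overlapping windows of Fcgr3 share theirs. The share by gene over all genes is not given here. A match describes these letters only. The windows printed here are examples from 4 classes, chosen after their matches were seen, and capitals mark the letters of a match. Windows of the more abundant Lcp1 and Coro1a held none. Laptm5, whose window lies at chr4:130913066-130913365 on the plus strand, has 1 match, whose first base lies 38 bases before the start.
Laptm5: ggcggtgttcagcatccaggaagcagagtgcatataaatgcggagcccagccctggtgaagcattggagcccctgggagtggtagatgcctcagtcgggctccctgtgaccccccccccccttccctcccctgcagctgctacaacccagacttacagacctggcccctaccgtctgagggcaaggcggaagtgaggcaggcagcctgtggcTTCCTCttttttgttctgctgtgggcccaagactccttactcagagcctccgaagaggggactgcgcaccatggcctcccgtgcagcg

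The macrophage class held 9 genes, of which C1qa and C1qb were most abundant per length in all 4 samples. C1qa, C1qb and C1qc encode the chains of complement component C1q, which tissue macrophages make and which binds dying cells. They lie together on chromosome 4 of mm10, C1qb at 136880129 to 136886187, C1qc at 136889804 to 136893065 and C1qa at 136895917 to 136898803, all on the minus strand. C1qa had 68.8 CPM in control 1, 17.3 in mutant 1, 8.38 in control 2 and 15.9 in mutant 2. C1qb had 46.2, 16.3, 5.48 and 14.6 CPM, and C1qc had 43.6, 11.4, 3.24 and 11.2 CPM. All 3 were highest in control 1, lowest in control 2 and nearly level between the mutants. Per kb of exon, C1qa reached 66.1 CPM in control 1 and 8.06 CPM in control 2.

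Ratios of the C1q genes in experimental group 1 were -1.99 for C1qa (95% interval -2.16 to -1.83), -1.498 for C1qb (-1.68 to -1.33) and -1.93 for C1qc (-2.14 to -1.74). In experimental group 2 they were 0.92 (0.64 to 1.22), 1.40 (1.08 to 1.75) and 1.76 (1.37 to 2.22). The intervals cover counting error only and lie on opposite sides of 0. In the model the genotype coefficient of C1qa was -0.56 (SE 0.47, edgeR adjusted p = 0.704), and the experimental group coefficient was -1.58 (SE 0.47, edgeR adjusted p = 0.0131). In a model of genotype alone the fold change of C1qa was -2.01 without control 2 (edgeR adjusted p = 0.0330) and 0.99 without control 1 (edgeR adjusted p = 1.00), so its direction depended on the control, and each such fit assumes that the lone control varies like the mutants. The C1qb window at chr4:136886151-136886450 on the minus strand, printed because C1qb is among the 11 genes past 2-fold both ways, has 1 match, whose first base lies 30 bases before the start.
C1qb: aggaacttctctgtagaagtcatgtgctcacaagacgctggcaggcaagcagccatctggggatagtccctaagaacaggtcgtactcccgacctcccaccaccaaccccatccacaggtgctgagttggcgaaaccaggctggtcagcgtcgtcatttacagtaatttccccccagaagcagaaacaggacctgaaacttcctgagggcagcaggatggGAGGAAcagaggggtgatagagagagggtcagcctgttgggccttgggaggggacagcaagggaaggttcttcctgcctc

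Receptors of macrophages followed the C1q genes. Csf1r, the receptor for the growth factors that maintain macrophages, had 65.4 CPM in control 1, 21.4 in mutant 1, 7.95 in control 2 and 14.4 in mutant 2. Its experimental group coefficient was -1.81 (SE 0.42, edgeR adjusted p = 0.0007255), which did not pass under DESeq2 (adjusted p = 0.203). Exons of Csf1r overlap those of Hmgxb3 on the opposite strand over 873 bp. The fractalkine receptor gene Cx3cr1, known for resident macrophages, had 30.4, 11.9, 2.62 and 5.96 CPM in the same order. Its exons share 78 bp with Gm33858 on the opposite strand. Cx3cr1 was 11.6-fold higher in control 1 than in control 2 and 1.99-fold higher in mutant 1 than in mutant 2. It passed for experimental group under all 3 tests, with a log2 fold change of -2.25 (SE 0.50).

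The lower macrophage genes kept the same direction, with wider intervals in experimental group 1 and, apart from Mrc1, in experimental group 2. Mrc1, the mannose receptor, had 15.7, 7.94, 5.24 and 8.40 CPM in control 1, mutant 1, control 2 and mutant 2, the smallest span of the class. Cd68, a lysosomal glycoprotein, had 9.12, 1.95, 2.48 and 4.00 CPM, and its ratio in experimental group 1 was the lowest of the class at -2.17. Cd68 was the only gene of the class whose lowest level was in mutant 1. Fcgr1, the high-affinity Fc receptor for immunoglobulin G, had 5.06, 1.87, 1.19 and 2.58 CPM. Aif1, which encodes IBA1, had 77, 42, 12 and 22 counts in that order. Over the 9 macrophage genes the median log2 ratio in mutants of experimental group 1 was -1.498, that in experimental group 2 was 1.05, and all 9 changed sign.

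Shared myeloid genes are those of macrophages, neutrophils and their relatives. Tyrobp (DAP12) and Fcer1g are signalling adaptors, and Fcgr3 is an Fc receptor that uses Fcer1g. Tyrobp had 18.4 CPM in control 1, 4.94 in mutant 1, 2.52 in control 2 and 6.37 in mutant 2. Fcer1g had 5.36, 1.30, 0.619 and 2.30 CPM, and Fcgr3 had 11.6, 3.30, 1.76 and 5.35 CPM. For these 3 genes mutant 2 was above mutant 1, with log2 ratios from -1.96 to -1.78 in experimental group 1 and from 1.30 to 1.74 in experimental group 2. Ctss, the cathepsin that prepares class II molecules for antigen presentation, had 47.9, 14.3, 10.5 and 29.6 CPM. Its ratio was -1.74 (95% interval -1.93 to -1.57) in experimental group 1 and 1.49 (1.26 to 1.74) in experimental group 2. Spi1 had 99, 24, 18 and 19 counts in control 1, mutant 1, control 2 and mutant 2, and its interval in experimental group 2 (-0.42 to 1.60) included 0. Ly86, the partner of the receptor RP105, had 95, 51, 18 and 31 counts.

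Lyz2 and Cd14 broke the pattern of the class. Lyz2 encodes lysozyme, which macrophages and neutrophils make and which some airway epithelial cells make as well. It had 223.5 CPM in control 1, 154.4 in mutant 1, 693.2 in control 2 and 583.8 in mutant 2, the highest level per kb of exon of the 31 genes in all 4 samples. Both samples of experimental group 2 were above both of experimental group 1 (log2 fold change 1.78, SE 0.24, edgeR adjusted p = 1.02e-10), and each mutant was below its own control, by 0.53 and 0.25 on the log2 scale. The genotype coefficient was -0.39 (SE 0.24, edgeR adjusted p = 0.472). Cd14, the co-receptor for lipopolysaccharide, had 20.5, 19.4, 28.1 and 30.2 CPM, and its counting intervals included 0 in both experimental groups. Ratios of the 8 genes had a median of -1.76 within experimental group 1 and of 1.25 within experimental group 2. Summed over the class, in which Lyz2 held most counts, the ratio was -0.74 and -0.16, so the sign in experimental group 2 depended on the summary.

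Windows of Ctss and Lyz2 are shown side by side because these abundant genes of the class differed in pattern. Ctss, at chr3:95526536-95526835 on the plus strand, has 2 matches, and Lyz2, at chr10:117282223-117282522 on the minus strand, has none, which says only that the letters are not in this window. Windows of Fcer1g and Ly86 held none either, although both genes were lower in mutant 1 and higher in mutant 2, as Ctss was.
Ctss: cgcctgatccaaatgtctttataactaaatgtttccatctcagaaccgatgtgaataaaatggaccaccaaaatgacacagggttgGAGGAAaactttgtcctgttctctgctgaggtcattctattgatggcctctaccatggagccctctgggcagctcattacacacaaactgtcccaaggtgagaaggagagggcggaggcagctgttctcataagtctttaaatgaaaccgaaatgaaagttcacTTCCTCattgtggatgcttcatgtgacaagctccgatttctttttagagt
Lyz2: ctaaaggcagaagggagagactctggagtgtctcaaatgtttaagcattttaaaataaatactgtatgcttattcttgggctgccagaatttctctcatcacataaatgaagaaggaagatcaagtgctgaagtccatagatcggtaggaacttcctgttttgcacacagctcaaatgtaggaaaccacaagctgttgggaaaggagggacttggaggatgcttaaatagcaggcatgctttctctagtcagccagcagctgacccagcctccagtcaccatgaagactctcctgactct

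The neutrophil class was S100a8 and S100a9, whose products pair as calprotectin. They are neighbours on chromosome 3 of mm10, S100a8 at 90668978 to 90670035 and S100a9 at 90692632 to 90695721. S100a8 had 254 counts in control 1, 65 in mutant 1, 23 in control 2 and 33 in mutant 2, or 11.0, 2.82, 1.10 and 2.24 CPM. S100a9 had 403, 124, 14 and 43 counts, or 17.4, 5.38, 0.667 and 2.91 CPM. Both were highest in control 1 and lowest in control 2, and both were higher in mutant 1 than in mutant 2. S100a9 was 26.1-fold higher in control 1 than in control 2, the largest such ratio among the tested genes of the set with counts in both. Its experimental group coefficient was -2.72 (SE 0.70, edgeR adjusted p = 0.005355), and that of S100a8 was -1.83 (SE 0.72, edgeR adjusted p = 0.0681). The pair's median ratio was -1.80 within experimental group 1 and 1.47 within experimental group 2. A list of further neutrophil genes, described below, had medians of opposite sign, 0.55 and -0.08. The windows are printed to set the pair beside each other. S100a8, at chr3:90668821-90669120 on the plus strand, has 2 matches, and S100a9, at chr3:90695672-90695971 on the minus strand, has none.
S100a8: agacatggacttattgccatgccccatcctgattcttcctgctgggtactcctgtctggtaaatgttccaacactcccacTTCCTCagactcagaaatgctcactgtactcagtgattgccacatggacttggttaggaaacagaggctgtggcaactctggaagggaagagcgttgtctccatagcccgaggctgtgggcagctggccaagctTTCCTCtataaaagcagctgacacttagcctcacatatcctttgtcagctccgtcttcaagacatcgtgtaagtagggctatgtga
S100a9: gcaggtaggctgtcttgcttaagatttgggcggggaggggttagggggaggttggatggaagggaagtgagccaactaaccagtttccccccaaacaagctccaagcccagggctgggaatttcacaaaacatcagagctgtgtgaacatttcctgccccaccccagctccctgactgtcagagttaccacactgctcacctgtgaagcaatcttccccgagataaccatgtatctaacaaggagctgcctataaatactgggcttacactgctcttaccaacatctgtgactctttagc

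Lymphocyte markers were near the limit of detection. Cd3e and Cd3g encode chains of the T cell receptor complex, and Nkg7 is a granule protein of natural killer and cytotoxic T cells. Cd3e had 5 counts in control 1, 16 in mutant 1, and 0 in control 2 and mutant 2. Cd3g had 34 counts in control 1, 11 in mutant 1, and 0 in control 2 and mutant 2. Nkg7 had 0 counts in both controls, 14 in mutant 1 and 1 in mutant 2. Summed over the 3 genes, experimental group 1 held 39 counts in control 1 and 41 in mutant 1, and experimental group 2 held 0 in control 2 and 1 in mutant 2. A count of 0 allows up to 3 counts, equal to 0.143 CPM in control 2 and to 0.203 CPM in mutant 2. No difference between genotypes was detectable at this depth in experimental group 2.

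Among B lymphocyte markers only Cd79b was abundant enough to test. Cd79a and Cd79b encode the signalling chains of the B cell receptor, and Ms4a1 encodes CD20. Cd79b had 101 counts in control 1, 58 in mutant 1, 10 in control 2 and 10 in mutant 2. Its log2 ratio was -0.77 (95% interval -1.29 to -0.32, counting error only) in experimental group 1 and 0.43 (-0.91 to 1.93) in experimental group 2. The experimental group coefficient of Cd79b was -2.54 (SE 0.87, edgeR adjusted p = 0.0209), and it did not pass under the quasi-likelihood test (adjusted p = 0.0549) or DESeq2 (adjusted p = 0.0558). Cd79a had 21 counts in mutant 1 and 0 in the other 3 samples. Ms4a1 had 39 counts in control 1, 1 in mutant 1, 0 in control 2 and 7 in mutant 2.

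Low counts in mutant 1 were set beside its background. At 1.80 counts per kb, 7.35 counts were expected for Cd3e, 5.89 for Cd3g, 1.65 for Nkg7, 2.63 for Cd79a, 2.58 for Cd79b and 11.2 for Ms4a1. Among genes silent in the other 3 samples, 32.2% reached the density of Cd3e in mutant 1, 36.2% that of Cd3g, 3.53% that of Nkg7, 3.82% that of Cd79a and 0.855% that of Cd79b. Ms4a1 was below the expected background. For the 25 tested genes of the other classes, the densities in mutant 1 were above it, from 7.65 counts per kb for Ptprc upward. Among the silent genes 13.5% reached the density of Ptprc, 9.97% that of Spi1, 4.06% that of Ly86 and 3.21% that of Fcgr1, and fewer reached those of the other genes.

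**Figure D3:**
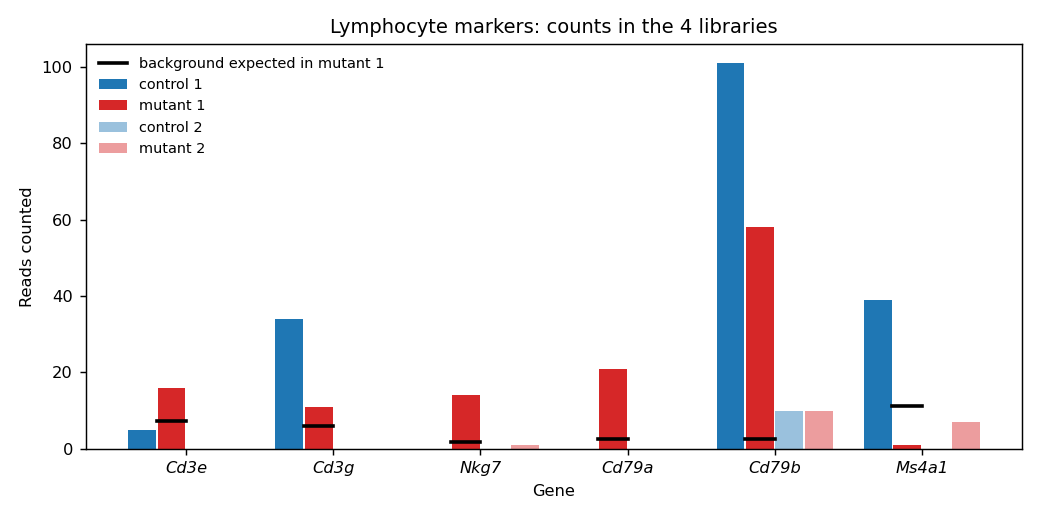
Reads counted for the 6 lymphocyte markers in each sample (bars; blue controls, red mutants, pale bars experimental group 2), with black lines at the counts expected in mutant 1 from its background density. Cd79b reached 101 counts in control 1, and no other gene passed 39 counts in any sample.

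Composition within a sample was then compared by scaling each gene to the summed C1q counts, since a ratio within a sample does not depend on library size. Summed C1q counts were 3670 in control 1, 1036 in mutant 1, 359 in control 2 and 615 in mutant 2. Csf1r stayed between 34.5 and 47.7 counts per 100 C1q counts in the 4 samples, and S100a8 between 5.37 and 6.92. Tyrobp ran from 11.0 to 15.3. By contrast, Lyz2 had 140.9 counts per 100 C1q counts in control 1, 343.6 in mutant 1, 4054 in control 2 and 1401 in mutant 2. Lcp1 had 82.0, 268.4, 1194 and 628.9, and Cd14 had 12.9, 43.2, 164.1 and 72.4. Summed C1q levels were 158.6, 44.9, 17.1 and 41.7 CPM, so a gene of level expression would give the same order on this scale.

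Besides these 3 genes, 95% counting intervals of the experimental groups did not overlap for Ctss, Ptprc, Cd53, Cd68 and S100a9. The share of all genes that would separate in this way was not computed, so the separation cannot be called particular to these genes. Ctss had 30.2 and 31.8 counts per 100 C1q counts in control 1 and mutant 1, compared with 61.3 and 70.9 in control 2 and mutant 2. Ptprc had 11.5 and 13.5 in control 1 and mutant 1, compared with 32.6 and 23.1 in control 2 and mutant 2. In that order Cd53 had 4.82, 5.02, 10.6 and 9.27, and Cd68 had 5.75, 4.34, 14.5 and 9.59. S100a9 went the other way, with 11.0 and 12.0 in experimental group 1 and 3.90 and 6.99 in experimental group 2. Within experimental group 1, Mrc1 had 9.89 in control 1 and 17.7 in mutant 1 and Cx3cr1 had 19.2 and 26.5, with counting intervals that did not overlap. The same held for Coro1a (24.71 and 34.65), Aif1 (2.10 and 4.05), Ly86 (2.59 and 4.92) and Cd79b (2.75 and 5.60). Within experimental group 2, Mrc1 went the other way, from 30.64 in control 2 to 20.16 in mutant 2, without overlap. Intervals of the other genes named for experimental group 1 overlapped there. Cx3cr1 had 15.3 and 14.3, Coro1a 42.9 and 31.87, Aif1 3.34 and 3.58, Ly86 5.01 and 5.04 and Cd79b 2.79 and 1.63. Shares within the C1q sum also moved. In experimental group 1 they went from 43.35% to 38.42% for C1qa and from 29.16% to 36.29% for C1qb, without overlap of intervals. In experimental group 2 the share of C1qa fell from 49.03% to 38.21%, again without overlap, whereas intervals of C1qb overlapped (32.03% and 34.96%). With 1 mouse per value these are descriptions.

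**Figure D4:**
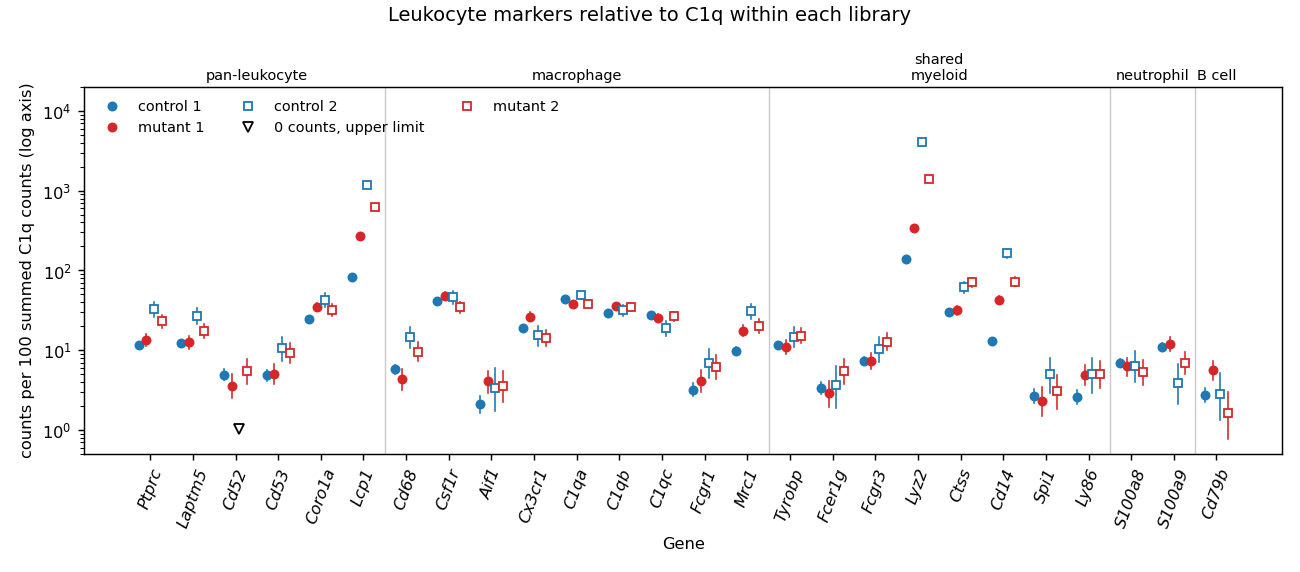
Counts of each tested gene per 100 summed C1q counts within each sample, on a log axis; lines are exact 95% intervals of the count ratio (for the C1q genes, of their share) and cover counting error only. Lyz2, Lcp1 and Cd14 spread over more than 10-fold between samples, whereas Csf1r stayed between 34.5 and 47.7; the triangle is the upper limit for Cd52 in control 2.

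Further leukocyte genes gave the wider setting. In a list of 27 other macrophage genes, 23 were tested, 0 passed for genotype in either direction, and 20 were lower in mutant 1 and higher in mutant 2. Their ratios had a median of -1.13 within experimental group 1 and 0.92 within experimental group 2. Lgmn, the protease legumain and the most abundant of them, was lower in both mutants, by 0.60 and 0.33 on the log2 scale, without passing (edgeR adjusted p = 0.179). Of 15 dendritic cell and class II genes, 9 were tested, and 5 changed sign in the same way. Cd74, the invariant chain, had 239.9 CPM in control 1, 132.8 in mutant 1, 76.5 in control 2 and 187.5 in mutant 2.

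Other leukocyte lists held few tested genes. Of 12 further neutrophil genes found, 6 were tested and 1 changed sign in that way. The 6 had a median ratio of 0.55 within experimental group 1 and -0.08 within experimental group 2, opposite in sign to S100a8 and S100a9. Ltf (lactoferrin), which glands also secrete, had 315.8 CPM in control 1, 978.6 in mutant 1, 1204 in control 2 and 1072 in mutant 2. Among further T and natural killer cell genes 4 of 17 were tested and 1 changed sign in that way, with Gzma, a cytotoxic granule protease, at 0.605 to 1.91 CPM. Among further B and plasma cell genes 3 of 11 were tested and 1, Jchain, changed sign in that way. Jchain, which joins secreted antibodies and marks plasma cells, had 916 counts in control 1, 17 in mutant 1, 4 in control 2 and 28 in mutant 2. That is a ratio of -5.57 on the log2 scale within experimental group 1 and of 2.79 within experimental group 2. Among mast cell, basophil and eosinophil genes, 3 of 14 were tested and 0 changed sign in that way. Hdc, which makes histamine, was 78.7, 50.8, 34.7 and 30.2 CPM in control 1, mutant 1, control 2 and mutant 2.

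Markers of other cell types that the sort could hold were compared in the same way. Of 11 endothelial genes, all tested, 9 were lower in mutant 1 and higher in mutant 2, with medians of -0.40 and 0.65. Cldn5, a junction protein of vessels, was highest in control 1 at 45.1 CPM and lowest in control 2 at 14.77 CPM. The 7 fibroblast genes had medians of -0.87 and -0.05, and 2 of them, the collagens Col1a1 and Col1a2, were lower in mutants (log2 fold changes -0.65 and -0.76, edgeR adjusted p = 0.0163 and 0.00682). Dcn (decorin), the most abundant fibroblast gene, had ratios of 0.23 and 1.12 and did not pass (log2 fold change 0.68, SE 0.26, edgeR adjusted p = 0.115). Red cell and platelet genes, of which 3 of 12 found were tested, had medians of 0.22 and 0.28. Itga2b, the platelet integrin, had 19.8, 23.1, 36.2 and 44.1 CPM in control 1, mutant 1, control 2 and mutant 2. Hbb-bs, a haemoglobin gene, had 31.1, 35.3, 2.29 and 5.90 CPM in the same order. Summed levels ran from 56.0 to 154.1 CPM for endothelial genes and from 43.3 to 66.8 CPM for red cell and platelet genes. The latter sum joins Hbb-bs, higher in experimental group 1, with Itga2b, higher in experimental group 2. The part of blood or vessel cells in the leukocyte ratios was not tested.

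Epithelial lists moved the same way in both experimental groups. All 8 mature sensory neuron genes were lower in mutants (median log2 ratios -0.85 and -1.72), with Omp, Cnga2, Cnga4 and Ano2 at edgeR adjusted p of 0.00714, 0.00058, 9.85e-05 and 0.000284. Horizontal basal genes had medians of 0.48 and 0.38, and 1 of 5, Krt15, was higher (log2 fold change 1.11, edgeR adjusted p = 4.53e-07). The 5 sustentacular genes had medians of 0.34 and 0.44, and 0 passed. The part of epithelial composition in the leukocyte ratios was not tested.

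**Figure D5:**
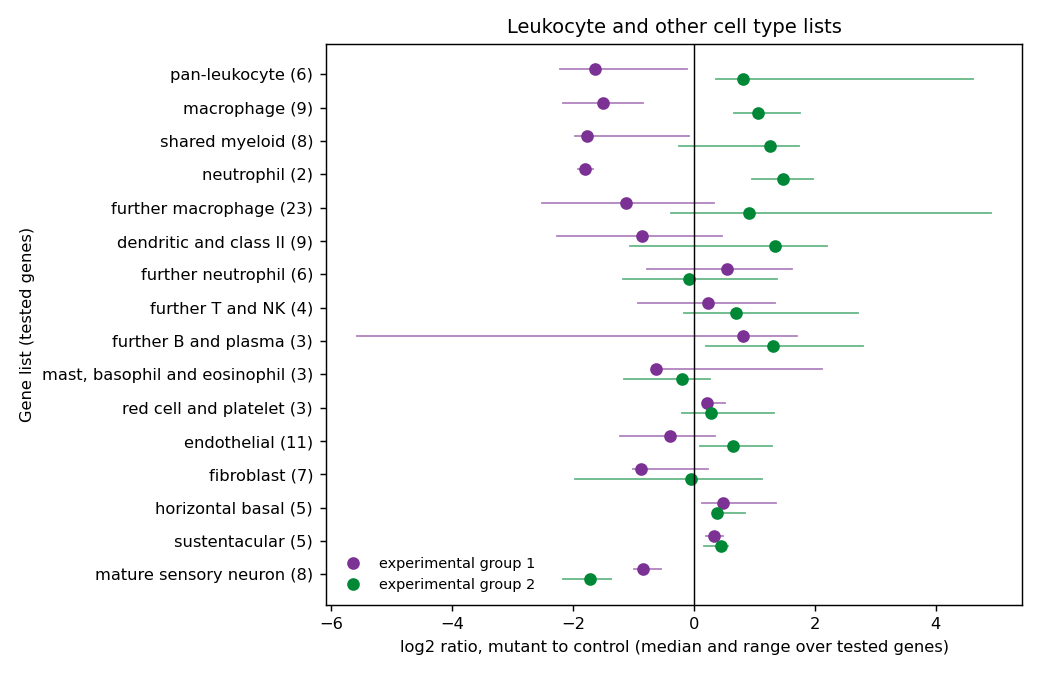
Median (points) and range (lines) of the log2 ratio of mutant to control CPM over the tested genes of each list, in experimental group 1 (purple) and experimental group 2 (green); the number of tested genes is in parentheses. Macrophage, shared myeloid, pan-leukocyte and neutrophil medians lie below 0 in experimental group 1 and above 0 in experimental group 2, whereas mature sensory neuron medians lie below 0 in both. The medians of the further neutrophil list lie the other way, at 0.55 and -0.08.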

How the data were processed

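Tomato-positive cells of 4 mice, 1 per sample, were profiled by RNA-seq after depletion of ribosomal RNA. Per the paper's methods and the submitters' processing notes, ribosomal reads were first taken out by Bowtie2 2.0.6, quality-filtered reads were aligned to mm10 with TopHat2 2.0.7, and reads per gene were counted with HTSeq (intersection-nonempty). The deposited values are raw counts made by the authors for 23337 gene symbols, followed by 5 tally lines, which entered neither library sizes nor tests. The strand setting and annotation of the counting are not given in the sources used here. HTSeq sets aside reads with several alignments, so genes with near-identical copies are uncertain.

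Genes above 1 CPM in at least 2 samples entered the likelihood-ratio test of edgeR 4.0.16 (R 4.3.3), with TMM factors, in a model of genotype and experimental group, as in the study's methods, and Benjamini-Hochberg adjustment over all 15438 tested genes at a threshold of 0.05. The study's methods give 13560 genes past the filter, the number reached here with tally lines kept, when 22 members were tested. SE is the standard error of a log2 fold change. The model contains the replicate block because the labels pair a mutant with a control of its own experimental group, and deviations from the genotype mean of the same-numbered samples correlated across genes (r = 0.522). Within each experimental group, log2 ratios come from TMM-scaled CPM with a prior count of 2 and carry no test. Class medians are over tested genes. Intervals of count ratios are exact 95% binomial intervals, and they and the floor of 3 counts per library cover counting error only, as reads are not independent molecules. Every pair of samples differed by more than sampling noise (chi-square per degree of freedom 47.0 to 278), so each was kept. Exon lengths, coordinates and overlaps come from GENCODE annotation of mm10, and promoter windows from RefSeq.

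Members, gene lists and tests were chosen with earlier results of these data known. All 31 members are named. Of each other list, the gene with the highest mean CPM and at most 3 genes past the threshold for genotype, those with the smallest p, are named. Hbb-bs is named in addition. Alternatives were the quasi-likelihood test, DESeq2 1.42.0, no replicate block, no filter, relative log expression (RLE) factors, CPM above 1 in all 4 samples, thinning to 14833396 counts, tally lines kept, background subtracted from mutant 1, other prior counts (0.5 and 5), summed CPM, and each library left out in a model of genotype or of experimental group alone. The fits were tested on simulated data. Genes that DESeq2 left without an adjusted p were kept out of its counts of calls.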

Additional observations from a re-analysis of the deposited data

Results flagged for a closer look

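Mutant to control ratios had opposite signs in the 2 experimental groups for 25 leukocyte markers and for 4 class medians. The difference, the log2 ratio of experimental group 2 minus that of experimental group 1, was 2.46 for the pan-leukocyte median, 2.55 for the macrophage median, 3.01 for the shared myeloid median and 3.27 for the neutrophil median. With 1 mutant and 1 control in each experimental group these differences were not tested, and genotype, mouse and library cannot be told apart in them.

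Among pan-leukocyte genes the difference was 2.35 for Ptprc, 2.43 for Laptm5, 6.84 for Cd52, 2.77 for Cd53, 2.175 for Coro1a and 0.47 for Lcp1, where the value for Cd52 depends on the prior count because control 2 had 0 counts. Macrophage genes differed by 2.84 for Cd68, 2.45 for Csf1r, 2.08 for Aif1, 2.51 for Cx3cr1, 2.91 for C1qa, 2.89 for C1qb, 3.69 for C1qc, 2.45 for Fcgr1 and 1.65 for Mrc1. Shared myeloid genes other than Lyz2 differed by 3.18 for Tyrobp, 3.71 for Fcer1g, 3.33 for Fcgr3, 3.23 for Ctss, 0.18 for Cd14, 2.48 for Spi1 and 2.07 for Ly86. The neutrophil genes S100a8 and S100a9 differed by 2.89 and 3.66, and the B lymphocyte gene Cd79b by 1.21.

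Reads outside genes, which no comparison used, were 39.4% of mutant 1's uniquely aligned reads, compared with 23.8 and 24.9% in the controls. Its part in the leukocyte ratios was not tested.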

How the results depend on the processing

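Of 650 member values under an alternative, 559 kept their direction and side of the threshold. Counts of members lower in mutant 1 (25 to 26), higher in mutant 2 (25) and past 2-fold both ways (9 to 12) stayed near 26, 25 and 11 under other scalings and prior counts, chosen after seeing the data. No leukocyte marker was called for genotype under the alternatives on all 4 libraries, in which adjusted p was 0.0716 or more. Leaving out 1 library, with genotype alone, gave 0 to 1 lower and 0 to 1 higher members (C1qa lower without control 2, adjusted p = 0.0330, and Cd52 higher without control 1, adjusted p = 0.0231). Over all genes, 0 to 5 were lower and 3 to 33 higher when 1 library was left out, 0 and 6 with no replicate block, and 115 higher under the quasi-likelihood test. For experimental group 3 members were lower under the quasi-likelihood test and 3 under DESeq2. Leaving out 1 library gave 0 (without control 1) to 10 lower and 1 to 2 higher. Summed CPM in place of the median moved log2 ratios to -0.55 for pan-leukocyte and -0.74 for shared myeloid genes in experimental group 1, to -0.16 for shared myeloid genes in experimental group 2, and to -0.95 and 0.0601 over all members. Lyz2 and Lcp1 held most of the summed counts in experimental group 2.

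Single members that were not called changed sign. With no replicate block, the genotype fold change was -1.002 for Cd52, -0.23 for Aif1, -0.20 for Ly86 and -1.12 for S100a9, and the block changed no call among members. It was -0.25 for Ly86, -0.0527 for S100a9 and 0.0272 for Cd79b after thinning, and -0.0422 for S100a9 under the quasi-likelihood test. With 1 library left out, which assumes that a lone library varies like the others, genotype fold changes ranged as follows. They were Ptprc -1.17 to 0.50, Laptm5 -1.56 to 0.50, Cd52 -1.96 to 8.26, Cd53 -1.29 to 0.76, Coro1a -1.40 to 0.99 and Lcp1 -0.44 to 0.64 for pan-leukocyte genes. Macrophage genes ranged as Cd68 -1.58 to 0.26, Csf1r -1.82 to 1.18, Aif1 -0.96 to 1.54, Cx3cr1 -1.72 to 1.78, C1qa -2.01 to 0.99, C1qb -1.54 to 1.5038, C1qc -1.91 to 1.81, Fcgr1 -1.15 to 0.90 and Mrc1 -0.90 to 0.65. Ranges of shared myeloid genes were Tyrobp -1.66 to 1.17, Fcer1g -1.54 to 1.53, Fcgr3 -1.38 to 1.29, Lyz2 -1.54 to 0.76, Ctss -1.09 to 1.07, Cd14 -0.29 to 0.31, Spi1 -1.84 to 0.44 and Ly86 -0.88 to 1.33. For the remaining genes they were S100a8 -2.07 to 1.21, S100a9 -2.02 to 2.64 and Cd79b -1.39 to 0.10. Experimental group fold changes ranged as Ptprc -1.28 to 0.30, Laptm5 -1.75 to 0.0452, Cd53 -1.45 to 0.30, Cd68 -1.51 to 0.70, Fcer1g -2.40 to 0.14, Fcgr3 -2.06 to 0.0824, Ctss -1.55 to 0.47 and Spi1 -2.01 to 0.0182. The cause was not tested. A single experimental group leaves no residual degree of freedom, so that alternative gave ratios with no test. With 2 mice per genotype and few counts, small differences in lymphocyte genes could not be detected.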
